A study of Mus musculus with 6 samples.

Results

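The cytosolic ribosomal protein genes were followed in kidney RNA of Tsc1-KO and WT mice. They were taken by symbol from the table of all genes. A gene belonged to the set when its symbol began with Rpl or Rps followed by a digit, or when it was Rplp0, Rplp1, Rplp2 or Rpsa. Kinases of ribosomal protein S6 (Rps6k), pseudogenes (-ps), Rps19bp1 and Rpl7l1 were left out. The set held 82 of 15302 listed genes, of which 49 name proteins of the large (60S) and 33 proteins of the small (40S) ribosomal subunit.

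Ribosomal proteins are made in nearly equal numbers and join ribosomal RNA to build the subunits that translate every messenger RNA in the cytosol. In vertebrates their messengers typically start with a C followed by a run of pyrimidines, the 5′ terminal oligopyrimidine (TOP) tract. The kinase complex mTORC1, which the TSC1-TSC2 complex restrains, promotes the translation of TOP messengers and, through S6 kinase, the phosphorylation of ribosomal protein S6. RNA sequencing measures how much messenger is present, and measures neither its translation nor the phosphorylation of a protein.

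The Tsc1-KO mice (Tsc1f/f/Aqp2 Cre) carried floxed Tsc1 and a Cre driven by Aqp2, a gene of collecting duct principal cells. The reference mice were WT animals labelled C57BL/ 6. Kidneys of 3 mice per genotype were taken at 45 days of age, and poly(A)-selected total kidney RNA was sequenced in 1 library per mouse. No label calls the WT mice littermates, so effects of the Cre, of the strain background and of the loss of Tsc1 cannot be told apart. All p-values measure the spread between these mice.

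The table gave between 19568856 and 24647430 reads in listed genes per library, from which FPKM (fragments per kilobase of gene model, scaled to the depth of a library) had been computed. Tsc1, the targeted gene, had 7.69, 7.61 and 8.23 FPKM in Tsc1-KO kidneys, against 8.46, 8.91 and 7.49 FPKM in WT kidneys. The groups overlapped (log2 fold change -0.07 ± 0.09 SE, adjusted p = 0.699 in limma). Cells in which Aqp2 is silent keep the gene, and their part in this level was not tested. All 12 kidney cell markers chosen to check the tissue were present, with a sum of 4943 to 5263 FPKM in Tsc1-KO kidneys, against 4575 to 5179 FPKM in WT kidneys. In limma 2 of the 12 rose in Tsc1-KO kidneys and 0 fell at an adjusted p under 0.05. They were Slc4a1, the chloride-bicarbonate exchanger of A-type intercalated cells (log2 fold change 1.25), and Foxi1, the transcription factor of intercalated cells (1.63). In such whole tissue, more cells of a type and more RNA per cell cannot be told apart. Without Tsc1-KO replicate 5 or 6 or WT replicate 1, 0 of the 12 were called in limma, without Tsc1-KO replicate 4 or WT replicate 2 it was 1, and without WT replicate 3 it was 4. With no variance trend 1 was called, with median-of-ratios scaling 1 and with no moderation 0. At an unadjusted p under 0.05, 4 of the 12 passed with all libraries. Over all genes tested, 2.11% were called and 19.2% had such a p with all libraries, and 8.41% were called without WT replicate 3.

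The annotated starts of ribosomal protein genes are shown first, because the TOP tract is the feature through which mTORC1 acts on these messengers. Each line gives 30 bases of RefSeq sequence on build GRCm38.p6, 10 before the annotated start and 20 from it, with capitals marking an unbroken pyrimidine run that begins with C at the start itself.
Rps6, chr4:86857348-86857377, minus strand: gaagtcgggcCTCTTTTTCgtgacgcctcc
Rpl15, chr14:18270967-18270996, minus strand: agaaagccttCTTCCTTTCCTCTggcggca
Rpl35, chr2:39005112-39005141, minus strand: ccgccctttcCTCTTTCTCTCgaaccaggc
Rps10, chr17:27635225-27635254, minus strand: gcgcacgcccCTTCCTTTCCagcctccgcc
Rps18, chr17:33955646-33955675, minus strand: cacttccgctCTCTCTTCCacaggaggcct
Rpl28, chr7:4792955-4792984, plus strand: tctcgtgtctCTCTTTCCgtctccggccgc
Rpl38, chr11:114668570-114668599, plus strand: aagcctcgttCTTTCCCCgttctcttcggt
Rps27, chr3:90213629-90213658, minus strand: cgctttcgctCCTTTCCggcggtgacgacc
Rpl41, chr10:128549149-128549178, minus strand: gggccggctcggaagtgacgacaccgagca
Rplp0, chr5:115559457-115559486, plus strand: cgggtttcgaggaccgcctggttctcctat
Rps27l, chr9:66946076-66946105, plus strand: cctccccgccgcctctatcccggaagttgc

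The first 8 windows have such a run at the annotated start, with lengths between 7 bases in Rps27 and 13 in Rpl15. In the windows of Rpl41, Rplp0 and Rps27l the annotated start itself is no TOP-type start, and a start in use a few bases away would not be seen there. For Rps27l the table lists a further start. Promoter sequence was matched for 61 of the 82 genes.

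A TOP-type start, a C at the annotated start followed by at least 4 letters that are each C or T, was present in 13 of these 61 genes (21.3%). It was present in 2.88% of 10469 other tested genes and in 3.01% of all 27025 genes with a promoter. A run of 8 pyrimidines on the coding strand anywhere from 20 bases before to 50 bases after the start was present in 48 of the 61 (78.7%), against 27.1% of the other tested genes and 28.5% of all genes. The letters CCGGAAG, the core of sites for ETS family factors, were searched on both strands of the 300 bases around the start. They were present in 24 of the 61 (39.3%), against 19.3% of the other tested genes and 9.93% of all genes. On the reverse strand these letters read CTTCCGG, whose first bases can also be part of a pyrimidine run. A gene with several annotated starts counted once if any of them matched, and a match describes the letters alone.

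At the level of the messenger, ribosomal protein genes were among the most abundant in the kidney. Their median was 326 FPKM, 70 of the 82 averaged at least 100 FPKM, 7 lay between 10 and 100 FPKM and 5 lay under 10 FPKM. Together they made up 5.63 ± 0.104% of all FPKM in Tsc1-KO kidneys and 5.58 ± 0.400% in WT kidneys (SD, n = 3 each). Their share of the reads was smaller, 1.98 ± 0.0644% in Tsc1-KO and 1.98 ± 0.145% in WT kidneys, since FPKM divides by length and the median gene model of the set was 740 bases long, against 2974 bases over all listed genes.

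In Tsc1-KO kidneys the summed level was 26290, 25961 and 24535 FPKM, against 23350, 26645 and 26753 FPKM in WT kidneys. All 3 Tsc1-KO values lay between the lowest and the highest WT value. The means were 25595 ± 933 FPKM in Tsc1-KO and 25583 ± 1935 FPKM in WT kidneys. The ratio of summed 60S to summed 40S messenger was 1.46, 1.45 and 1.44 in Tsc1-KO kidneys, against 1.47, 1.46 and 1.45 in WT kidneys. These ratios overlapped too, with means of 1.45 ± 0.0112 in Tsc1-KO and 1.46 ± 0.00765 in WT kidneys.

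Of the 82 genes, 80 passed the filter on low values, a mean of 0.5 FPKM. In limma 0 of the 80 rose and 0 fell at an adjusted p under 0.05, and also 0 were under an unadjusted p of 0.05. With limma-voom on recovered reads both numbers were 0 as well. Over all 13230 genes tested, 2.11% were called in either direction, 1.87% higher and 0.234% lower in Tsc1-KO kidneys, and 19.2% had an unadjusted p under 0.05. Limma-voom called 2.13%. The values of the groups did not overlap in 0 of the 80 ribosomal protein genes, against 25.4% of all genes tested, 17.3% higher and 8.07% lower in Tsc1-KO kidneys. The number called over all genes moved with single libraries, between 0 without Tsc1-KO replicate 6 and 1115 without WT replicate 3, while the number of ribosomal protein genes called was 0 without any one of the 6 libraries.

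The median log2 fold change of the 80 genes was 0.0013, with 42 values above 0 and 38 below, beside a median of 0.04 over all genes tested. The 47 genes of the 60S subunit had a median of -0.01 and the 33 of the 40S subunit a median of 0.02. Median-of-ratios scaling moved the median of the set to -0.05, with 12 of 80 values above 0, and the median of all genes to -0.01. Leaving out WT replicate 1 moved the median of the set to -0.07, with 10 of 80 above 0. It was -0.02 without Tsc1-KO replicate 4 (32 of 80 above 0) and -0.0056 without Tsc1-KO replicate 5 (38 of 80), and 0.03 without any one of the other libraries. The sign of such a small median thus changed with the scaling and with each of 3 libraries.

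**Figure D1:**
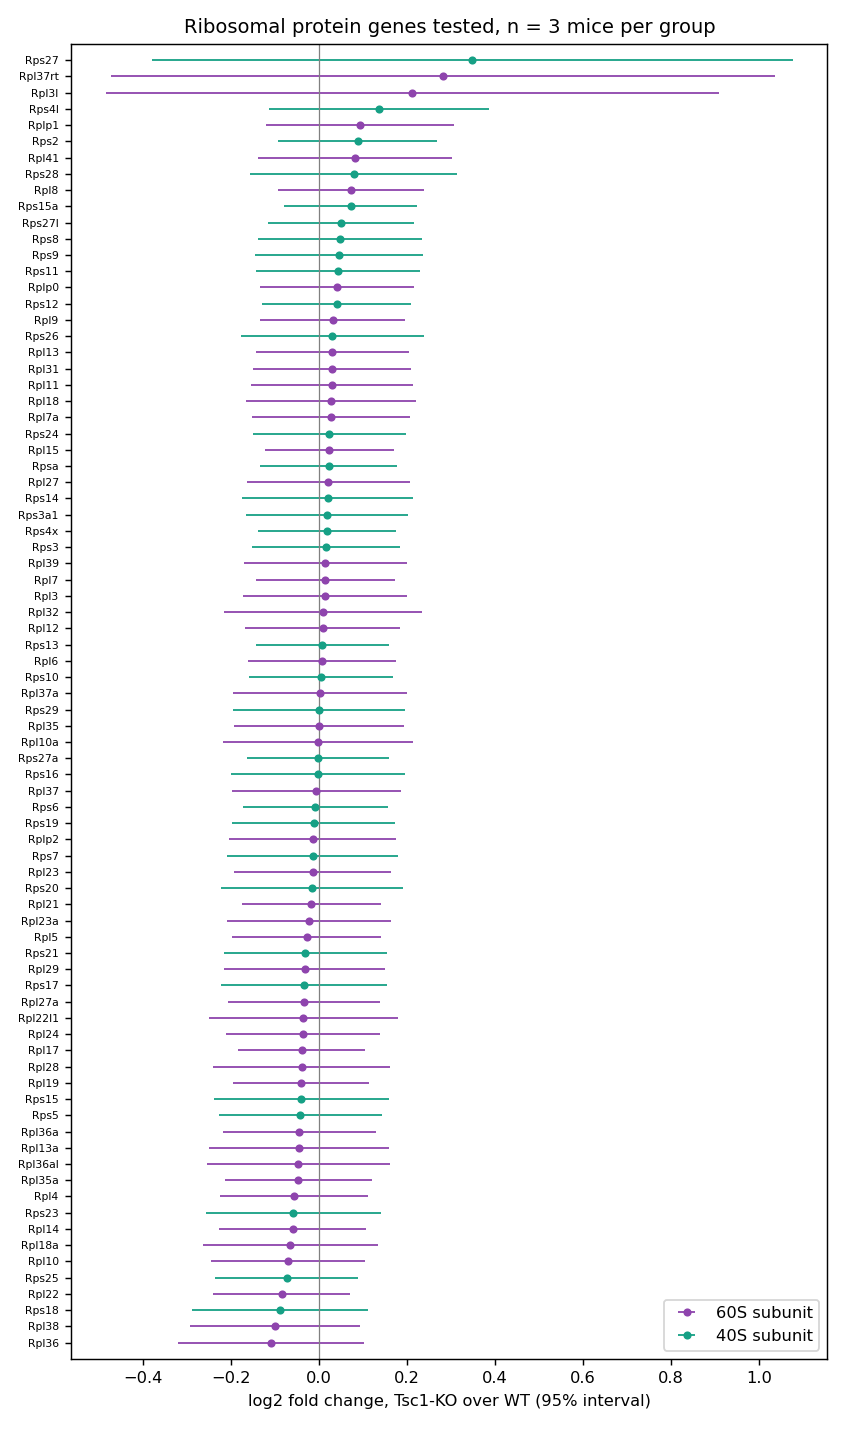
Log2 fold change (horizontal axis, Tsc1-KO over WT) of each of the 80 ribosomal protein genes tested, with 95% intervals from limma, n = 3 mice per group; purple points are 60S and green points 40S genes. Every interval includes 0, and the 3 widest belong to Rps27, Rpl37rt and Rpl3l, each under 10 FPKM.

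On the deposited scale with all libraries, the size of the change was described for the 77 genes that averaged at least 10 FPKM. Their log2 fold changes ran from -0.11 (Rpl36) to 0.14 (Rps4l), and 75 of the 77 lay within 0.1 of 0. Their 95% intervals all included 0 and, over the 77, reached no lower than -0.32 and no higher than 0.39, or from -19.9% to 30.7%. The change that 3 mice per group could detect differed between genes, as the SE was 0.06 for Rpl17 and 0.11 for Rps4l. Changes within the half-width of a gene's own interval were not detectable. These intervals are unadjusted, and a call at an adjusted p needed a larger change than the half-width. For 53 of the 77 every Tsc1-KO value lay inside the WT range, and the WT range was the wider one for 72 of the 77. Over 15 alternative ways of processing, the log2 fold change of Rpl36 ran from -0.17 to -0.02 and that of Rps4l from 0.04 to 0.20. The ranges given here thus hold for 1 scale and all libraries, and set no bound on a change.

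The sizes of these differences were set beside those of genes of similar level. The median size of the log2 fold change, without its sign, was 0.03 for the 70 ribosomal protein genes at 100 FPKM or more, 0.10 for the 692 other genes at that level and 0.13 for all genes tested. A difference within 0.1 was seen in 69 of the 70 and in 337 of the 692. The spread between mice of 1 genotype was nearly equal, with a median residual SD of 0.0947 and 0.0941 on the log2 scale. Of the 692 genes, 13 were called higher and 3 lower in limma. Genes near the set in function, at any level above the filter, also had small differences. The median size was 0.05 for 78 mitochondrial ribosomal protein genes, with 62 of 78 within 0.1. It was 0.05 for 22 translation factors and other non-ribosomal TOP genes, with 18 of 22 within 0.1. No test of the set against the other genes was made. Ribosomal protein genes moved together between libraries, so the 69 small differences are not independent of each other. The median log2 fold change of the 80 tested genes was 0.0013 here, -0.05 under median-of-ratios scaling and -0.07 without WT replicate 1.

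**Figure D2:**
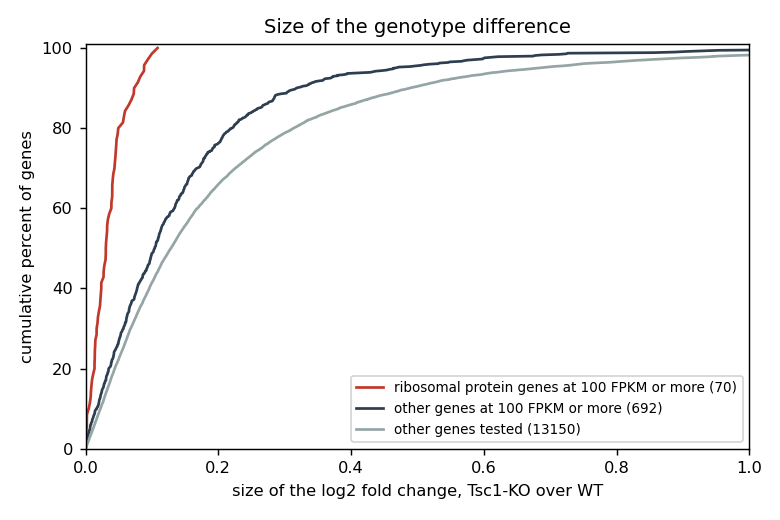
Cumulative percent of genes (vertical axis) against the size of the log2 fold change, Tsc1-KO over WT (horizontal axis, shown up to 1). On the deposited scale with all libraries, the curve of the 70 ribosomal protein genes at 100 FPKM or more reaches its top near 0.11. The 692 other genes at that level and all other genes tested extend past 1.

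Among the most abundant members, Rpl41, the smallest ribosomal protein, had 1375, 1371 and 1229 FPKM in Tsc1-KO kidneys, against 1148, 1240 and 1370 FPKM in WT kidneys (log2 fold change 0.08 ± 0.09 SE). Rps2, a 40S protein near the path on which messenger RNA enters, had 710, 689 and 683 FPKM in Tsc1-KO kidneys, against 599, 658 and 706 FPKM in WT kidneys (0.09 ± 0.08 SE). In both, the groups overlapped and WT replicate 1 was the lowest library. Rpl10, a 60S protein added late in assembly, had 602, 613 and 567 FPKM in Tsc1-KO kidneys, against 579, 665 and 627 FPKM in WT kidneys. Rpl28, also of the 60S subunit, had 622, 608 and 557 FPKM in Tsc1-KO kidneys, against 553, 643 and 642 FPKM in WT kidneys. Here the highest library was WT replicate 2, and the log2 fold changes were -0.07 for Rpl10 and -0.04 for Rpl28.

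The P-stalk of the 60S subunit, which recruits translation factors, is formed by the proteins of Rplp0, Rplp1 and Rplp2. Rplp0 had 470, 467 and 452 FPKM in Tsc1-KO kidneys, against 430, 494 and 429 FPKM in WT kidneys. Rplp1 had 840, 816 and 772 FPKM in Tsc1-KO kidneys, against 678, 773 and 830 FPKM in WT kidneys. Rplp2 had 204, 201 and 194 FPKM in Tsc1-KO kidneys, against 180, 215 and 212 FPKM in WT kidneys. In the 3 genes the groups overlapped, with log2 fold changes of 0.04 for Rplp0, 0.09 for Rplp1 and -0.01 for Rplp2. Their levels differed per length, Rplp1 being the highest of the 3 in every library.

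Rps6, whose protein is the S6 kinase substrate, had 277, 269 and 262 FPKM in Tsc1-KO kidneys, against 249, 280 and 286 FPKM in WT kidneys. The log2 fold change was -0.01 ± 0.07 SE (95% interval -0.17 to 0.16, adjusted p = 0.964 in limma), with all Tsc1-KO values inside the WT range. Rpsa, a 40S protein also known as the precursor of a laminin receptor, had 229, 222 and 222 FPKM in Tsc1-KO kidneys, against 208, 217 and 239 FPKM in WT kidneys. Rps27a, which is translated as a fusion of ubiquitin with a 40S protein, had 197, 190 and 186 FPKM in Tsc1-KO kidneys, against 176, 198 and 201 FPKM in WT kidneys. The log2 fold changes of Rpsa and Rps27a were 0.02 and -0.0020, and in neither did the groups separate.

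The most negative log2 fold changes were those of Rpl36 (-0.11 ± 0.09 SE), Rpl38 (-0.10 ± 0.08), Rps18 (-0.09 ± 0.08), Rpl22 (-0.08 ± 0.07) and Rps25 (-0.07 ± 0.07). Rpl36 had 384, 360 and 349 FPKM in Tsc1-KO kidneys, against 362, 443 and 378 FPKM in WT kidneys. Rpl38, a 60S protein known in mice for the translation of Hox messengers in embryos, had 295, 290 and 266 FPKM in Tsc1-KO kidneys, against 275, 318 and 321 FPKM in WT kidneys. WT replicate 2 was the highest library for Rpl36, and in both genes the lowest value was that of Tsc1-KO replicate 6. Rps18, of the head of the 40S subunit, had 438, 447 and 409 FPKM in Tsc1-KO kidneys, against 422, 510 and 448 FPKM in WT kidneys. Rps25, a 40S protein known for initiation at internal entry sites, had 322, 328 and 295 FPKM in Tsc1-KO kidneys, against 313, 337 and 344 FPKM in WT kidneys. The groups overlapped in each of these genes.

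The smallest adjusted p-values in limma were 0.536 for Rpl22, 0.538 for Rps4l and 0.558 for Rpl38. Over 15 alternative ways of processing, the adjusted p of Rpl22 ran from 0.328 to 0.813, that of Rps4l from 0.281 to 0.870 and that of Rpl38 from 0.390 to 0.838. The most positive log2 fold changes were those of Rps27 (0.35 ± 0.31 SE), Rpl37rt (0.28 ± 0.32), Rpl3l (0.21 ± 0.29), Rps4l (0.14 ± 0.11) and Rplp1 (0.09 ± 0.09). The first 3 rested on few reads.

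Rps27, a zinc finger protein of the 40S subunit, had 13, 6 and 9 reads in Tsc1-KO libraries, against 7, 5 and 9 in WT libraries. Rpl37rt, a retrotransposed copy of Rpl37, had 14, 11 and 12 reads in Tsc1-KO libraries, against 6, 16 and 10 in WT libraries. Rpl3l, which in mice is known as the muscle form of Rpl3, had 67, 39 and 44 reads in Tsc1-KO libraries, against 39, 32 and 60 in WT libraries. In each the groups overlapped. Rpl30 and Rpl34, both of the 60S subunit, were below the filter. Rpl30 had 5, 8 and 7 reads in Tsc1-KO libraries, against 2, 4 and 7 in WT libraries. Rpl34 had 5, 10 and 8 reads in Tsc1-KO libraries, against 4, 6 and 12 in WT libraries. Their groups overlapped as well.

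The low levels of Rps27, Rpl30 and Rpl34 stood far from the median of 326 FPKM for the set, and they are uncertain as levels. Of the 50-base stretches of the Rps27 transcript in the GENCODE vM21 annotation, 98.6% also occurred in transcripts of other genes. The figure was 47.8% for Rpl30 and 50.6% for Rpl34. How reads that match several places were counted is not given in the sources used here, and the part of shared sequence in these levels was not tested. Sharing was common in the set: of 80 genes matched, 78 shared some stretch, 49 shared over 50% and 4 over 90%, with a median of 55.5%. The shared part was 53.1% for Rpl41 and 0% for Rpl3l. Rps10 (92.4%), Rpl10 (92.1%) and Rps12 (90.1%) averaged 344, 609 and 439 FPKM. Over the 80 genes matched, the Spearman correlation of the shared part with the level was 0.21.

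Length also entered the order of levels. The gene models had 5135 bases for Rps15a, 4451 for Rpl22 and 3447 for Rps20, far above the median of 740. These genes had 19.3, 34.0 and 59.4 FPKM on average. Comparisons between genotypes hold the length of a gene fixed.

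Paralogs, which stem from duplicated ribosomal protein genes and can replace each other in the ribosome, were compared in 5 pairs. Rps27l, known in mouse and human as a p53-inducible paralog of Rps27, had 212, 212 and 199 FPKM in Tsc1-KO kidneys, against 193, 191 and 218 FPKM in WT kidneys. Rpl22l1 had 24.3, 28.1 and 22.3 FPKM in Tsc1-KO kidneys, against 25.0, 25.0 and 26.3 FPKM in WT kidneys. Its partner Rpl22, an RNA-binding 60S protein, had 33.7, 33.7 and 31.4 FPKM in Tsc1-KO kidneys, against 33.2, 37.3 and 34.4 FPKM in WT kidneys. Rpl22l1 was thus below Rpl22 in every library, and neither gene separated the genotypes.

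Rpl36al lay above its X-linked relative Rpl36a in every library. Rpl36al had 304, 287 and 259 FPKM in Tsc1-KO kidneys, against 268, 293 and 317 FPKM in WT kidneys. Rpl36a had 207, 199 and 192 FPKM in Tsc1-KO kidneys, against 187, 212 and 219 FPKM in WT kidneys. Both followed the same order of libraries within the WT group. Of the 50-base stretches of the transcripts, 63.3% for Rpl36al and 85.5% for Rpl36a also occurred in other genes. These shares do not tell which genes those are, and a split of reads between copies was not tested.

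Rpl3, which lies at the peptidyl transferase centre, had 334, 339 and 325 FPKM in Tsc1-KO kidneys, against 314, 368 and 310 FPKM in WT kidneys. Rpl3l had 1.96, 1.25 and 1.12 FPKM in Tsc1-KO kidneys, against 1.09, 0.893 and 1.74 FPKM in WT kidneys. The kidney thus carried little of the muscle form in either genotype. The X-linked 40S gene Rps4x had 342, 343 and 341 FPKM in Tsc1-KO kidneys, against 311, 354 and 348 FPKM in WT kidneys. Rps4l had 11.6, 10.8 and 10.1 FPKM in Tsc1-KO kidneys, against 10.4, 8.57 and 10.7 FPKM in WT kidneys. Rps4l was lowest in WT replicate 2, in which Rps4x was highest.

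The log2 ratio within a pair differed between Tsc1-KO and WT kidneys by -0.30 for Rps27l over Rps27 (exact 2-sided permutation p = 0.5). That ratio rests on 5 to 13 Rps27 reads per library and on a level of Rps27 that is uncertain, as told above. The difference was 0.05 for Rpl22l1 over Rpl22, 0.20 for Rpl3l over Rpl3 and 0.12 for Rps4l over Rps4x (exact permutation p = 0.6 in each). For Rpl36al over Rpl36a it was -0.0020 (exact permutation p = 1). The adjusted p over the 5 pairs was 0.75 or more, and 3 mice against 3 cannot give a permutation p below 0.1. The sign changed for 4 of the 5 pairs, all but Rps27l over Rps27, when single libraries were left out. Without WT replicate 2, for example, the difference was -0.07 for Rpl3l over Rpl3 and -0.02 for Rps4l over Rps4x.

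**Figure D3:**
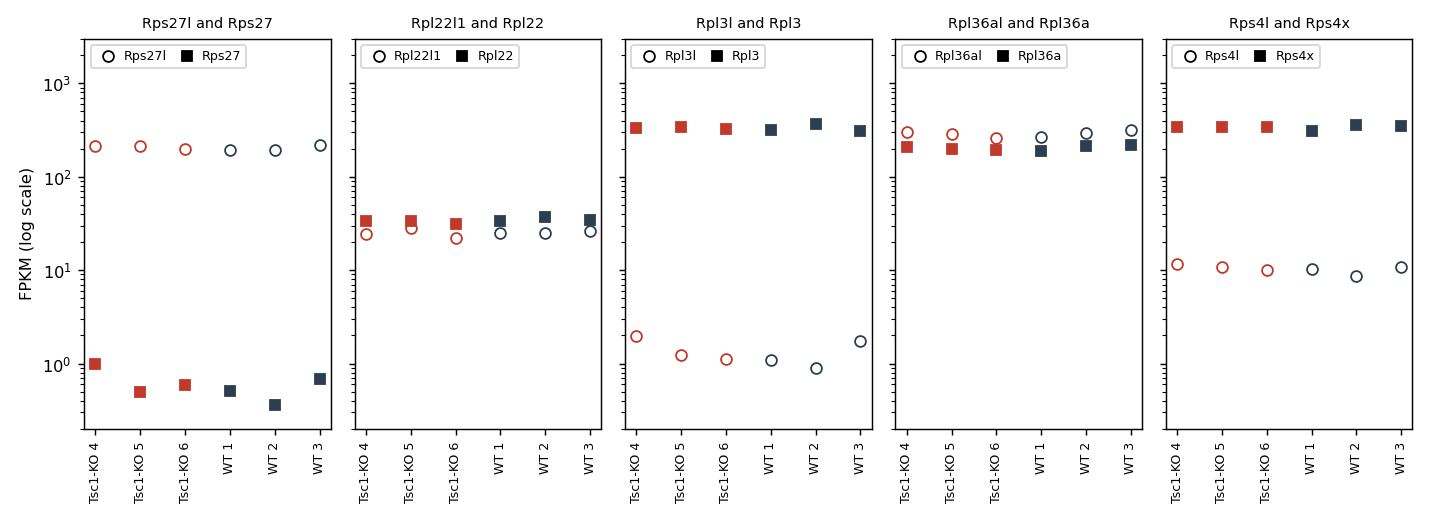
FPKM (vertical log axis) of both genes of 5 paralog pairs in each library, Tsc1-KO in red and WT in dark blue; open circles are the paralog and filled squares its partner. Rps27l and Rpl36al lie above their partners, Rpl22l1, Rpl3l and Rps4l lie below, and the order within a pair is the same in all 6 libraries. The level of Rps27 is uncertain. Of its 50-base stretches, 98.6% also occur in other genes, and the part of this in its level was not tested.

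Ribosomal protein genes moved together from library to library, within the genotypes. For the 77 genes at 10 FPKM or more, the median deviation from the gene's own mean was 0.04, 0.02 and -0.06 on the log2 scale in Tsc1-KO replicates 4, 5 and 6, against -0.12, 0.06 and 0.07 in WT replicates 1, 2 and 3. WT replicate 1 was the lowest library for 59 of the 77 genes and Tsc1-KO replicate 6 for 14. WT replicates 2 and 3 were the highest for 33 genes each. The 2 WT extremes thus enclosed the Tsc1-KO libraries.

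The first principal component of the 77 profiles held 73.3% of their variance, and the median correlation between 2 genes over the 6 libraries was 0.796. Over these libraries, 59 of the 77 genes correlated above 0.8 with the median profile. The genes share library, depth and scaling, so the correlation is a description of these libraries. Rps4l (-0.08), Rpl22l1 (0.39), Rpl3 (0.43) and Rplp0 (0.46) had the lowest correlations with that profile. The shift was small in size: the highest library was a median of 1.18 times the lowest.

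**Figure D4:**
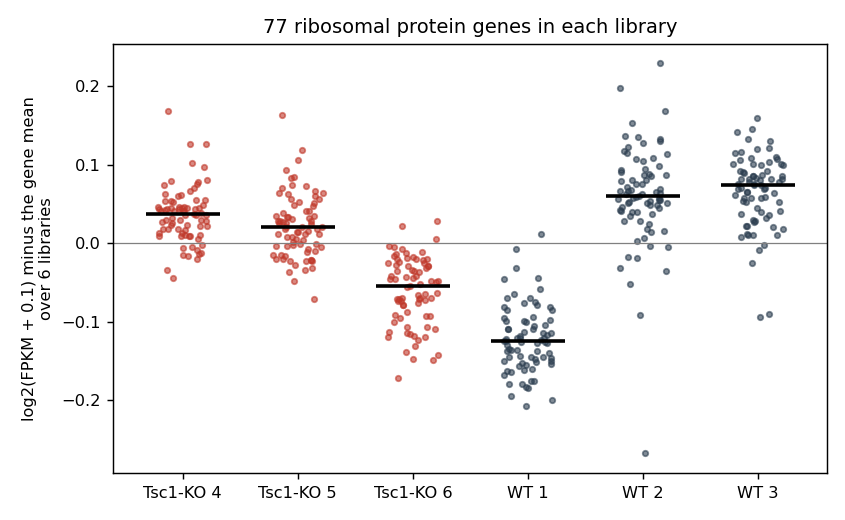
Deviation of log2(FPKM + 0.1) from the gene's mean over the 6 libraries (vertical axis) for the 77 ribosomal protein genes at 10 FPKM or more; each point is a gene and each black line the median of a library. The median is lowest in WT 1 (-0.12) and highest in WT 3 (0.07), and the Tsc1-KO medians lie between them.

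Other short and abundant messengers shared part of this pattern. For 161 other genes of at least 100 FPKM and under 1000 bases, the median deviation was 0.04, 0.05 and -0.05 in the Tsc1-KO libraries, against -0.10, -0.05 and 0.09 in the WT libraries. For 73 mitochondrial ribosomal protein genes it was 0.04, 0.06 and -0.07 in the Tsc1-KO libraries, against -0.07, -0.04 and 0.09 in the WT libraries. For the 21 TOP translation factors at 10 FPKM or more it was 0.02, 0.0024 and -0.04 in the Tsc1-KO libraries, against -0.07, 0.05 and 0.02 in the WT libraries. On this scale WT replicate 1 was the lowest library in each of these groups, for the mitochondrial genes by a margin of less than 0.01 from Tsc1-KO replicate 6. WT replicate 2 was above 0 for the cytosolic set and the TOP translation factors. The order depended on the scaling: with median-of-ratios scaling Tsc1-KO replicate 6 stood at -0.094 and WT replicate 1 at -0.095 for the cytosolic set, and at -0.107 and -0.039 for the mitochondrial genes. Kap, an abundant androgen-regulated messenger of the mouse kidney, took 6.92%, 6.44% and 6.03% of all FPKM in Tsc1-KO libraries, against 8.43%, 5.96% and 7.77% in WT libraries. It was highest in WT replicate 1, where ribosomal protein genes were lowest. Its next highest share was in WT replicate 3, where the median of those genes was highest. The part of message length, of Kap or of RNA quality in the common shift was not tested.

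The fold changes were also split by the start sequence shown above. The median log2 fold change was -0.01 for the 13 genes with such a start, which ran from -0.10 (Rpl38) to 0.35 (Rps27), and 0.01 for the 47 tested genes with a promoter and no such start. The medians of their levels were 294 and 302 FPKM. With CCGGAAG present or absent, the medians of the log2 fold change were 0.0048 over 23 genes and 0.0021 over 37 genes. These starts are the annotated ones and the values are descriptions without a test.

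Genes next to the set in function gave like values. Fau encodes a 40S protein as a fusion with a ubiquitin-like protein, and Rack1 encodes a scaffold bound to the 40S subunit. Rack1 had 281, 281 and 281 FPKM in Tsc1-KO kidneys, against 248, 292 and 285 FPKM in WT kidneys. Fau had 277, 281 and 259 FPKM in Tsc1-KO kidneys, against 258, 295 and 287 FPKM in WT kidneys. In both genes the Tsc1-KO values lay inside the WT range. The log2 fold changes were -0.04 for Fau (adjusted p = 0.819 in limma) and 0.03 for Rack1 (adjusted p = 0.838 in limma).

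Of 22 translation factors and other non-ribosomal TOP genes, 0 rose and 0 fell in limma and 0 were called in limma-voom, with 0 at an unadjusted p under 0.05. Their median log2 fold change was -0.01. The smallest p-values were those of Eif3l, a subunit of initiation factor eIF3 (log2 fold change 0.14), Eif4b, a helper of the eIF4A helicase and an S6 kinase substrate (-0.16), and Eef1g, a subunit of elongation factor eEF1 (0.11). Eif4b had 88.3, 83.5 and 84.2 FPKM in Tsc1-KO kidneys, against 88.7, 107 and 91.5 FPKM in WT kidneys. Its groups did not overlap. In this direction that was so for 3 of the 22 genes and for 8.07% of all genes tested. In the other direction it was so for 2 of the 22 and for 17.3% of all genes tested.

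Of the 8 S6 kinase and related kinase genes, 0 were called in limma and 0 in limma-voom, 1 had an unadjusted p under 0.05 in limma, and the median log2 fold change was -0.02. The smallest p-values were those of Rps6kb2, which encodes S6 kinase 2 (0.17), Rps6ka5, which encodes MSK1 (-0.38), and Rps6ka6, which encodes RSK4 (0.15). Of 13 binders of TOP messengers and other regulators, 0 were called in limma and 0 in limma-voom, with 1 at an unadjusted p under 0.05 and a median of 0.05. Its leading genes were Pdcd4, an inhibitor of eIF4A (0.33), Eif4ebp1, the eIF4E-binding protein that mTORC1 phosphorylates (0.22), and Tial1, an RNA-binding protein of TOP messengers (0.15). Pdcd4 had 15.2, 16.1 and 19.8 FPKM in Tsc1-KO kidneys, against 13.5, 14.1 and 12.8 FPKM in WT kidneys (adjusted p = 0.172 in limma). The groups of Pdcd4 did not overlap, which in this direction was also so for 17.3% of all genes tested.

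Of 55 ribosome biogenesis genes, 0 were called in limma and 0 in limma-voom, and 2 had an unadjusted p under 0.05. Their median log2 fold change was 0.06, beside 0.04 over all genes tested. Utp20, of the machinery that processes the small subunit, had 11.8, 10.5 and 11.7 FPKM in Tsc1-KO kidneys, against 9.25, 8.16 and 8.50 FPKM in WT kidneys (log2 fold change 0.38 ± 0.08 SE, adjusted p = 0.0729 in limma). Heatr1, a factor of the same machinery, had 4.98, 4.89 and 5.75 FPKM in Tsc1-KO kidneys, against 4.25, 3.84 and 4.23 FPKM in WT kidneys (0.33 ± 0.10 SE). In both, every Tsc1-KO value was above every WT value. Such a lack of overlap was seen in 3 of the 55 genes in this direction and in 4 of the 55 in the other, beside 17.3% and 8.07% of all genes tested. Nop2, a ribosomal RNA methyltransferase, had a log2 fold change of 0.24 and overlapping groups. Without WT replicate 3, 4 of the 55 genes (7.27%) were called higher and 0 lower, beside 8.41% of all genes called in that setting.

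RNA polymerase I subunits and factors transcribe or help transcribe ribosomal RNA. Of 19, 0 were called in limma and 0 in limma-voom, with 0 at an unadjusted p under 0.05 and a median log2 fold change of 0.06. The leading genes were Polr2k (0.14) and Znrd1 (0.10), both polymerase subunits, and Taf1c, of the promoter selectivity factor (0.18). Of 14 host genes of small nucleolar RNAs, 0 were called in limma and 0 in limma-voom, with 2 at an unadjusted p under 0.05 and a median of -0.05. Their leading genes were Snhg5 (0.36), Snhg4 (0.31) and Snhg3 (-0.13). Of 78 mitochondrial ribosomal protein genes, 0 were called in limma and 0 in limma-voom, with 4 at an unadjusted p under 0.05 and a median of 0.01.

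Free ribosomal proteins are known to stabilise p53, so p53 target genes were listed as well. Of 17 tested, 0 were called in limma and 0 in limma-voom, with 3 at an unadjusted p under 0.05 and a median log2 fold change of 0.17. Cdkn1a, the cell cycle inhibitor p21, had 12.5, 12.1 and 16.9 FPKM in Tsc1-KO kidneys, against 3.01, 2.69 and 7.59 FPKM in WT kidneys (1.76 ± 0.38 SE, adjusted p = 0.0729 in limma). Its groups did not overlap, which in this direction was also so for 17.3% of all genes tested. Bax, a promoter of apoptosis, had a log2 fold change of 0.27 and Phlda3, an inhibitor of Akt, of 0.45. Without WT replicate 3, 3 of 18 p53 target genes tested were called higher and 0 lower, beside 8.41% of all genes called in that setting.

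Of 11 proliferation markers, 1 rose and 0 fell in Tsc1-KO kidneys in limma, and 9 had an unadjusted p under 0.05. Over all genes tested these shares were 1.87%, 0.234% and 19.2%. Top2a, the topoisomerase of dividing cells, had 3.21, 2.40 and 3.19 FPKM in Tsc1-KO kidneys, against 1.32, 1.50 and 0.914 FPKM in WT kidneys (log2 fold change 1.19 ± 0.21 SE, adjusted p = 0.0415 in limma). The groups of Top2a did not overlap. In this direction that was so for 7 of the 11 markers and for 17.3% of all genes tested. Cdk1, a mitotic kinase with a mean of 2.17 FPKM in Tsc1-KO and 1.07 FPKM in WT kidneys, and Birc5, a protein of the chromosomal passenger complex (0.83), did not pass. The median over the 11 genes was 0.86, beside 0.0013 over the ribosomal protein genes of the same kidneys. These medians come from unlike levels, as 2 of the 11 averaged at least 5 FPKM and the median ribosomal protein gene had 326 FPKM. Whole-kidney RNA may not show a change of ribosomal protein genes that is limited to few cells. Without any one of the Tsc1-KO replicates or without WT replicate 1 the number called was 0, without WT replicate 2 it was 3 and without WT replicate 3 it was 2. Of all genes, 1.445% were called without WT replicate 2 and 8.41% without WT replicate 3. The number of proliferation markers called moved with the processing too. It was also 0 with no variance trend, with no moderation and, with 2 of the genes tested, under a filter at a mean of 5 FPKM.

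Markers of other cells were counted beside these lists. Of 15 leukocyte markers 12 were listed and 7 tested, 0 were called in limma or limma-voom and 0 had an unadjusted p under 0.05, and their summed level was 104 to 148 FPKM in Tsc1-KO kidneys, against 104 to 139 FPKM in WT kidneys. Adgre1 (0.61), Ptprc (0.35) and Lyz2 (0.11) had the smallest p-values among them. Of 11 markers of muscle, fat and adrenal tissue 5 were listed and 4 tested, and 0 were called in limma or limma-voom, with 1 at an unadjusted p under 0.05. Their sum was 98.3 to 165 FPKM in Tsc1-KO kidneys, against 54.0 to 102 FPKM in WT kidneys, most of it from Fabp4 (0.76), a lipid carrier of fat and endothelium. Star had a log2 fold change of -0.14 and Adipoq of 0.59. The sum of this second list was lowest in WT replicate 1, as were the ribosomal protein genes, but highest in Tsc1-KO replicate 4. The part of other tissue in the common shift was not tested.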

How the data were processed

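For the authors, Novogene used HISAT2 2.0.4 for alignment and HTSeq 0.9.1 for read counts. The genome build is not given in the sources used here. The authors deposited FPKM per library and mean normalised counts (a signal). Their fold change and p-value columns, and 2 lists selected on them, were not used. Whole reads were recovered from both units: 100% of 90069 values (those not above 10000 reads) were whole at a tolerance of 0.02. FPKM were scaled to the reads of listed genes.

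Samples were grouped by their genotype labels. The model was limma 3.58.1 in R 4.3.3 on log2(FPKM + 0.1), restricted to the 13230 genes averaging 0.5 FPKM or more, with 2-sided tests, a trend of the variance and p-values adjusted over all of them by Benjamini and Hochberg. Fold changes of low genes are understated by the pseudocount. The procedure was tested on simulated counts, in which genes varied independently and changes were larger than those of the set. No shift common to a library was simulated, so that case was not tested. The 15 alternatives changed the pseudocount, filter, scaling, trend, moderation, test or left out 1 library. Members and lists were chosen with earlier results of these data known. Genes named were the 5 largest changes each way, the 5 highest and 5 lowest levels, paralog pairs, those nearest to a call, Rps6, Rplp0, Rplp1, Rplp2, Rpsa, Rps27a and the 3 smallest p-values per list; others were named for levels, sequence or correlation after their values were seen. Sequences came from RefSeq (GRCm38.p6) and GENCODE vM21. Tables and plots used pandas 2.3.3, numpy 2.4.6 and matplotlib 3.10.9 in Python 3.11.15. 1 gene of a list is not reported here.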

Additional observations from a re-analysis of the deposited data

How the results depend on the processing

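No ribosomal protein gene was called in any of the 15 alternatives, and the median log2 fold change of the set stayed between -0.07 and 0.03. No paired analysis was possible because the Tsc1-KO and WT libraries share no replicate numbers. With 3 mice per group, the 95% intervals reached up to 0.25 either way on the log2 scale for the 77 genes at 10 FPKM or more, and up to 0.75 for the 3 tested genes below that level.

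Of all genes, 279 were called; the number was 180 with a filter at a mean of 5 FPKM and 0 with no moderation. With each library left out it ran from 0 (Tsc1-KO replicate 6) to 1115 (WT replicate 3), and was 104 when Tsc1-KO replicate 4, 24 when Tsc1-KO replicate 5 and 29 when WT replicate 1 was missing. Leaving out libraries gave 0 to 4 kidney markers called, 0 to 3 proliferation markers and 0 to 4 ribosome biogenesis genes. It gave 0 to 3 p53 targets, 0 to 1 markers of other tissues and 0 to 2 mitochondrial ribosomal protein genes. Those 2 of 78 (2.56%) were called higher without WT replicate 3, beside 8.41% of all genes called. Median-of-ratios scaling left 1 kidney marker called, no variance trend 1 and no moderation 0; the last 2 settings and the filter at 5 FPKM left 0 proliferation markers. For the gene lists, these 3 settings other than the scaling were added after seeing the data.

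Signs of uncalled changes turned with the scaling. Under median-of-ratios scaling the log2 fold change was -0.033 for Rpl3, -0.029 for Rps4x, -0.0060 for Rplp0 and -0.025 for Rpsa. On the summed-FPKM scale it was 0.0057 for Rps6, 0.00035 for Rplp2 and 0.012 for Rps27a. With single libraries left out it ran from -0.017 to 0.46 for Rpl3l, from -0.026 to 0.57 for Rpl37rt, from -0.11 to 0.0085 for Rpl28, from -0.13 to 0.042 for Rpl22l1, from -0.11 to 0.017 for Rpl36al, from -0.11 to 0.0019 for Rpl36a, from -0.030 to 0.093 for Rpl3, from -0.040 to 0.053 for Rps4x, from -0.070 to 0.031 for Rps6, from -0.097 to 0.032 for Rplp2, from -0.022 to 0.079 for Rpsa and from -0.064 to 0.035 for Rps27a. The difference in log2 ratio ran from -0.024 to 0.093 for Rpl22l1 over Rpl22, from -0.073 to 0.49 for Rpl3l over Rpl3, from -0.028 to 0.035 for Rpl36al over Rpl36a and from -0.016 to 0.22 for Rps4l over Rps4x. The cause of these changes was not tested.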
